A study of Homo sapiens with 96 samples.

Results

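The genes CD44, ENAH, CTNND1, ITGA6, NUMB, RAC1, TJP1 and FGFR1 carry exons whose use is known to differ between epithelial and mesenchymal cells, and the splicing of these 8 genes was followed in A549 cells, a human lung adenocarcinoma line, under inhibition of protein arginine methyltransferases (PRMTs). All splicing events listed under these gene symbols in 8 rMATS tables were taken, whatever their values: 458 of 239131 distinct events. Events that share the same alternative sequence were joined into 1 segment, which left 211 segments of 153567 in 8 of 14397 genes. CD44 gave 57 segments, CTNND1 34, TJP1 32, FGFR1 30, NUMB 23, ENAH 14, RAC1 13 and ITGA6 8. By type, 109 were skipped exons (SE), 83 pairs of mutually exclusive exons (MXE), 9 alternative 3′ splice sites (A3SS), 8 alternative 5′ splice sites (A5SS) and 2 retained introns (RI), both in FGFR1.

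Poly(A) RNA was sequenced from 30 libraries in 10 groups of 3. GSK591, which inhibits PRMT5, was given at 1 µM for 2, 4 or 7 days. MS023, which inhibits the Type I PRMTs, was given at 1 µM for 2, 4 or 7 days, and both inhibitors together for 2 or 4 days. The controls received 0.01% DMSO for 4 or 7 days. All groups are the same line without a genetic change. No source used here says that the 3 libraries of a group came from separate cultures, so the spread between them may be technical. In the main test below, the spread between libraries was pooled over all skipped exons. The p-value of an exon therefore does not reflect its own spread between libraries. The 2-day and 4-day groups were set against the same 3 libraries of DMSO at 4 days, so no 2-day control entered; the 7-day groups were set against DMSO at 7 days, a match inferred from which samples cite each table. Values of different inhibitors share these controls and are therefore given side by side. Summed over all skipped exon events listed for a library, inclusion and skipping counts came to 45420420 to 97845475; a read counts once for each event it falls in, so these sums are not the number of reads sequenced, and they are highest for DMSO at 4 days, whose libraries are in the most tables. The tables order the 3 libraries of a group without replicate numbers, so they are called a, b and c here.

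In epithelial cells, splicing factors such as ESRP1 and ESRP2 steer a set of adhesion, polarity and cytoskeleton genes toward one isoform, and when cells become mesenchymal the same genes shift to the other. ENAH (an actin regulator also called Mena) includes a short exon in its epithelial form. CD44, a hyaluronan receptor, carries variable exons in epithelial cells and lacks them in its standard, mesenchymal form. CTNND1 encodes p120-catenin, which holds cadherins at the membrane and is made as a long form in mesenchymal cells and a shorter form from a later start codon in epithelial cells. FGFR1 is a receptor for fibroblast growth factors with alternative immunoglobulin-like loops, NUMB an adaptor of endocytosis and Notch signalling, TJP1 the tight junction scaffold ZO-1, ITGA6 a laminin-binding integrin chain and RAC1 a small GTPase.

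The sequences of 7 exons that carry the results below show how small most of these switches are. They were read from the GRCh37 (hg19) genome, the build of the tables. Capitals mark the exon, and lower case marks 20 bases of intron before it and 10 after it. For ITGA6 the print ends at the last coding base of the exon, since the reading frame stops inside it. FGFR1 is described without sequence.
ENAH 63-nt exon, chr1:225692683-225692775, minus strand: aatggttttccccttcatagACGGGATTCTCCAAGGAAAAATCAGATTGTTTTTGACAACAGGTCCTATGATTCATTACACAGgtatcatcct
NUMB proline-rich region exon, chr14:73745979-73746152, minus strand: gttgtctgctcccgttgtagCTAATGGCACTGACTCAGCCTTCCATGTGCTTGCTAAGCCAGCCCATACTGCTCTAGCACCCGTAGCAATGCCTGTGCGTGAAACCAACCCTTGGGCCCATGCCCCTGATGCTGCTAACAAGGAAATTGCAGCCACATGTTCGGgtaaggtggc
NUMB 33-nt exon, chr14:73783088-73783150, minus strand: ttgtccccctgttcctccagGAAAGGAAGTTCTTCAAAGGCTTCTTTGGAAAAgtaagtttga
ITGA6 130-nt exon, its 105 coding bases, chr2:173366480-173366604, plus strand: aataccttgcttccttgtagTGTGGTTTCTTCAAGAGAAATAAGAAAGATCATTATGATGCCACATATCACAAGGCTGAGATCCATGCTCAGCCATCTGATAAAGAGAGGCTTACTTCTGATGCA
TJP1 240-nt exon, chr15:30011971-30012240, minus strand: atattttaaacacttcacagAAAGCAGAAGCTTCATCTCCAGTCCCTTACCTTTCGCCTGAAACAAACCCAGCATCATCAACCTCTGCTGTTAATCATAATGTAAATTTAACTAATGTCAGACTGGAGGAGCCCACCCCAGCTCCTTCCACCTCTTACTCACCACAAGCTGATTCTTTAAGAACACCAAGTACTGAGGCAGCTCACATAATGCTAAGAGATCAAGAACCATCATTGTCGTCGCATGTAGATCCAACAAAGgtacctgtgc
CD44 204-nt exon, chr11:35232773-35233006, plus strand: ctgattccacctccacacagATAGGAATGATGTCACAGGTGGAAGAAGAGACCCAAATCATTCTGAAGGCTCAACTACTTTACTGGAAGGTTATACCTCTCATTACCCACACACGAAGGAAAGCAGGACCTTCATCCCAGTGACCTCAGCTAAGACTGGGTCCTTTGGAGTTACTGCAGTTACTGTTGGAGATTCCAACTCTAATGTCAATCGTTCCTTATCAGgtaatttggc
RAC1 57-nt exon, chr7:6438273-6438359, plus strand: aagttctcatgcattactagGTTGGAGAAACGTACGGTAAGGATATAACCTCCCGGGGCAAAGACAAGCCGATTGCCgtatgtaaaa
The ENAH, NUMB, TJP1, CD44 and RAC1 exons have lengths that are multiples of 3 and are coding throughout in every coding transcript that holds them, so each adds a stretch of amino acids and keeps the frame. They differ in base composition: GC content was 38.1% in the ENAH exon, 36.4% in the NUMB 33-nt exon, 44.2% in the TJP1 exon, 44.6% in the CD44 exon, 52.6% in the RAC1 exon and 54.9% in the exon of the NUMB proline-rich region (PRR). In the 250 bases of intron on either side, read along the transcript's own strand, TGCATG (the word bound by RBFOX proteins) occurred before the NUMB PRR exon and after the TJP1 and CD44 exons, 1 time each, and GGTGG (a word bound by ESRP proteins) occurred 2 times before the CD44 exon and 1 time after each NUMB exon and after the ITGA6 exon. Of 81325 exons searched in the same way, 6.9% held TGCATG before and 7.22% after the exon, and 30.1% and 34% held GGTGG. The 2 words do not overlap, and a match describes letters only.

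Inclusion is given as percent spliced in, Ψ, here on a scale from 0 to 1: the share of transcripts that contain the exon, after each form's reads are divided by its effective length. ΔΨ is Ψ with inhibitor minus Ψ with DMSO, and its standard error (SE) comes from the spread of the 3 and 3 libraries. A segment was tested where every library held at least 10 reads, and called where a quasi-binomial logistic model gave a Benjamini-Hochberg adjusted p under 0.05 over all segments of its type. The dispersion of that model was almost the same for all segments, which makes small differences in deeply covered exons easier to call. A stricter second test, limma on log2 odds, called far fewer; below, a call is said to hold with limma where it passed there too.

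Of the 211 segments, at least 122 could be tested in each comparison; the others were not listed or had too few reads. Under GSK591, 16 of 140 were called at 2 days (9 with higher and 7 with lower Ψ), 29 at 4 days, 20.1% of those tested there (16 and 13), and 14 of 128 at 7 days (7 and 7), where 5.75%, 9.55% and 7% of all segments in the tables were called. Under MS023, 7 of 133 were called at 2 days (0 higher, 7 lower), 9 of 126 at 4 days (1 and 8) and 12 of 122 at 7 days (3 and 9), against 1.92%, 2.46% and 3.45% of all segments. With both inhibitors, 33 of 139 were called at 2 days (16 higher, 17 lower) and 35 of 133 at 4 days (19 and 16), against 10.9% and 12.8%. The share of called members was thus above the background in every comparison. Segments of the same gene can share reads, so these counts are not counts of independent results. The median absolute ΔΨ of the tested members was smaller than that of all tested segments, for example 0.00859 against 0.0121 under GSK591 at 4 days.

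Most segments are present or absent in nearly every transcript, so exons with a mean Ψ between 0.05 and 0.95 in at least 1 of the groups compared were also counted apart. An exon can enter this range through the inhibitor group, by the change itself, so these shares partly depend on the outcome. The CD44 204-nt exon, at 0.0482 with DMSO at 4 days, was left out with MS023 at 2 days, where it fell to 0.0258. Among exons in the range, GSK591 changed 9 of 20 at 2 days, 11 of 19 at 4 days and 4 of 18 at 7 days (45%, 57.9% and 22.2%), where 15.5%, 22.8% and 17.5% of all such exons were called. MS023 changed 3 of 16, 5 of 18 and 4 of 17 at 2, 4 and 7 days, where 6.38%, 7.87% and 9.43% were called. All 3 exons in the range that were called with MS023 at 2 days were in CTNND1 (119, 180 and 182 nt). Outside the range, CD44 exons of 129 and 204 nt and a RAC1 exon of 160 nt were also called lower at that time. The 3 CTNND1 exons were among those called with MS023 at 4 and 7 days. Those of 180 and 182 nt share reads and are not separate results. Both inhibitors changed 14 of 20 at 2 days and 18 of 24 at 4 days, where 27.8% and 31.9% were called.

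**Figure D1:**
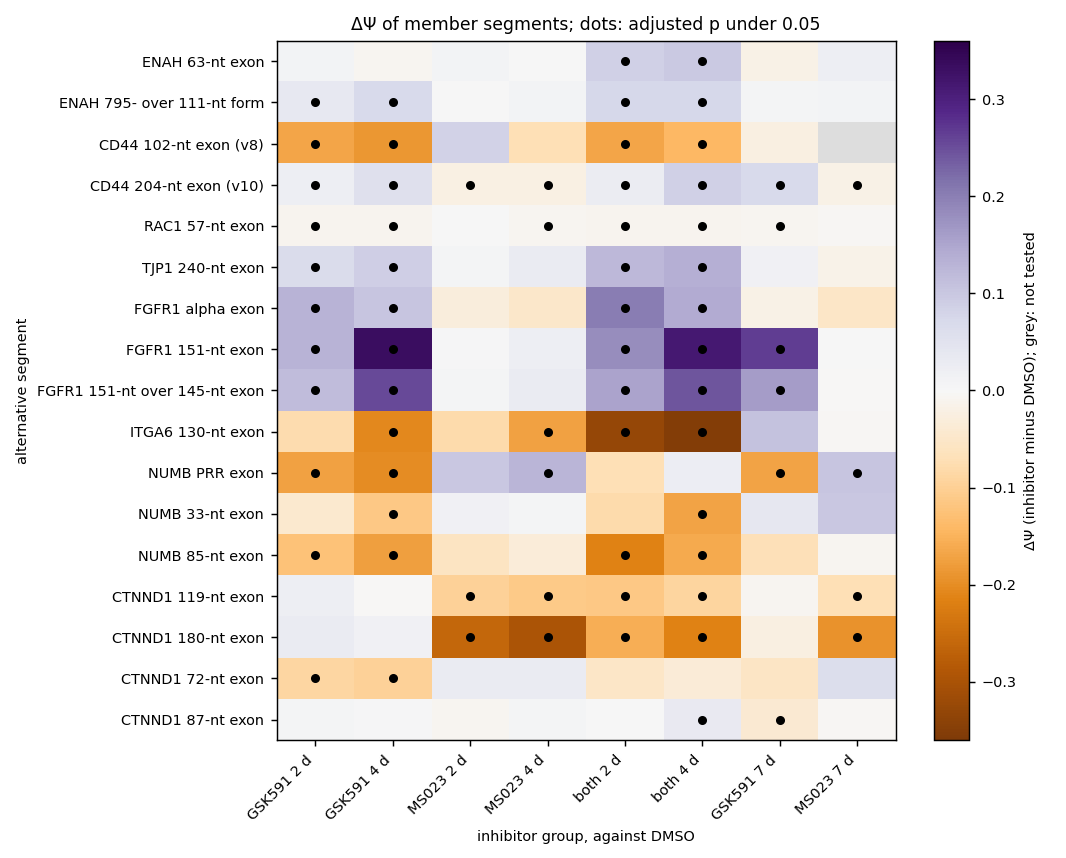
Difference in Ψ (inhibitor minus DMSO, colour scale) for 17 segments of the 8 genes (rows) in the 8 comparisons (columns). Dots mark adjusted p under 0.05 and grey cells were not tested; the FGFR1 151-nt exon was higher in all 5 GSK591 and co-treatment columns and the CTNND1 180-nt exon lower in all 5 MS023 and co-treatment columns.

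The 63-nt ENAH exon (chr1:225692693-225692755, minus strand), the mark of the epithelial Mena isoform, was included in few transcripts and, of the 8 comparisons with DMSO, was called only in those of both inhibitors combined. With DMSO at 4 days Ψ was 0.0919, 0.0889 and 0.079 in libraries a, b and c. With both inhibitors it was 0.185, 0.164 and 0.165 at 2 days and 0.182, 0.178 and 0.19 at 4 days. Every co-treated library lay above every DMSO library, and the mean went from 0.0866 ± 0.00677 (SD, n = 3) to 0.172 ± 0.0116 and 0.183 ± 0.00614. ΔΨ was 0.0851 (SE 0.00773, adjusted p = 1.62e-08) at 2 days and 0.0966 (SE 0.00528, adjusted p = 6.4e-11) at 4 days. Neither inhibitor alone gave a call against DMSO: ΔΨ at 4 days was -0.00782 (SE 0.00871, adjusted p = 0.655) with GSK591 and 0.000503 (SE 0.00582, adjusted p = 0.993) with MS023. The difference itself was tested, and the co-treated libraries exceeded GSK591 alone by 0.104 (adjusted p = 4.05e-12) and MS023 alone by 0.0961 (adjusted p = 4.45e-10) at 4 days, and by 0.0765 and 0.0759 at 2 days (adjusted p = 1.92e-05 and 2.74e-06). At 7 days GSK591 and MS023 differed from each other by a ΔΨ of -0.0402 (adjusted p = 0.00914). The calls did not hold with limma over all exons (adjusted p = 0.301 and 0.248).

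A second ENAH choice lies upstream, where an alternative 3′ splice site (chosen for description after its values were seen) extends a coding exon from 111 to 795 nt (chr1:225704898-225705692). The long form had a Ψ of 0.0803, 0.0884 and 0.0888 with DMSO at 4 days, and of 0.155, 0.166 and 0.152 with GSK591 at 4 days. With GSK591 it rose by a ΔΨ of 0.0356 (SE 0.00994, adjusted p = 6.02e-06) at 2 days and 0.0718 (SE 0.00503, adjusted p = 5.3e-20) at 4 days, and with both inhibitors by 0.0738 and 0.0741 (adjusted p = 7.71e-19 and 1.07e-15). With MS023 at 4 days ΔΨ was 0.0103 (SE 0.00546, adjusted p = 0.568). None of the calls of this splice site held with limma (adjusted p = 0.194 to 0.603). So within this gene the long exon moved with GSK591, while the 63-nt exon passed the test against DMSO in the co-treated groups. The control itself moved, from 0.0858 at 4 days to 0.0481 at 7 days (adjusted p = 1.47e-11), and at 7 days the GSK591 libraries stood at 0.0545, 0.0538 and 0.0607 against 0.0514, 0.0492 and 0.0437 with DMSO (ΔΨ 0.00826, SE 0.00317, adjusted p = 0.111).

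RAC1 has a single textbook switch, the 57-nt exon (chr7:6438293-6438349) that turns RAC1 into the self-activating form RAC1b. It was rare in A549 cells and nearly vanished with GSK591. Reads supporting inclusion, summed over 3 libraries, numbered 126 with DMSO at 4 days, 16 with GSK591 at 2 days and 2 at 4 days, while each library held 1891 to 3389 reads of the event in the DMSO, GSK591 and co-treated groups at those times. Ψ was 0.00802, 0.0129 and 0.0119 with DMSO at 4 days and 0, 0.000608 and 0 with GSK591 at 4 days. A count of 0 in these libraries allows a Ψ of up to 0.00112 and 0.000847, counting error only. The fall was called at 2 days (ΔΨ -0.00952, SE 0.00155, adjusted p = 2.2e-08), 4 days (ΔΨ -0.0107, SE 0.0015, adjusted p = 2.04e-12) and 7 days (ΔΨ -0.0063, SE 0.00241, adjusted p = 8.59e-05), and with both inhibitors at 2 and 4 days (ΔΨ -0.0102 and -0.0107, adjusted p = 2.31e-09 and 1.65e-12). It held with limma at 4 days with GSK591 (adjusted p = 0.0257) and at both times with both inhibitors (adjusted p = 0.0308 and 0.012). With MS023 the exon was at a Ψ of 0.0138, 0.0131 and 0.0113 at 2 days and 0.00557, 0.00479 and 0.00488 at 4 days; the 4-day call (adjusted p = 0.0466) was lost in 5 of 6 fits that left out 1 library. GSK591 and MS023 differed from each other at 2 and 4 days (adjusted p = 2e-10 and 2.73e-05).

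**Figure D2:**
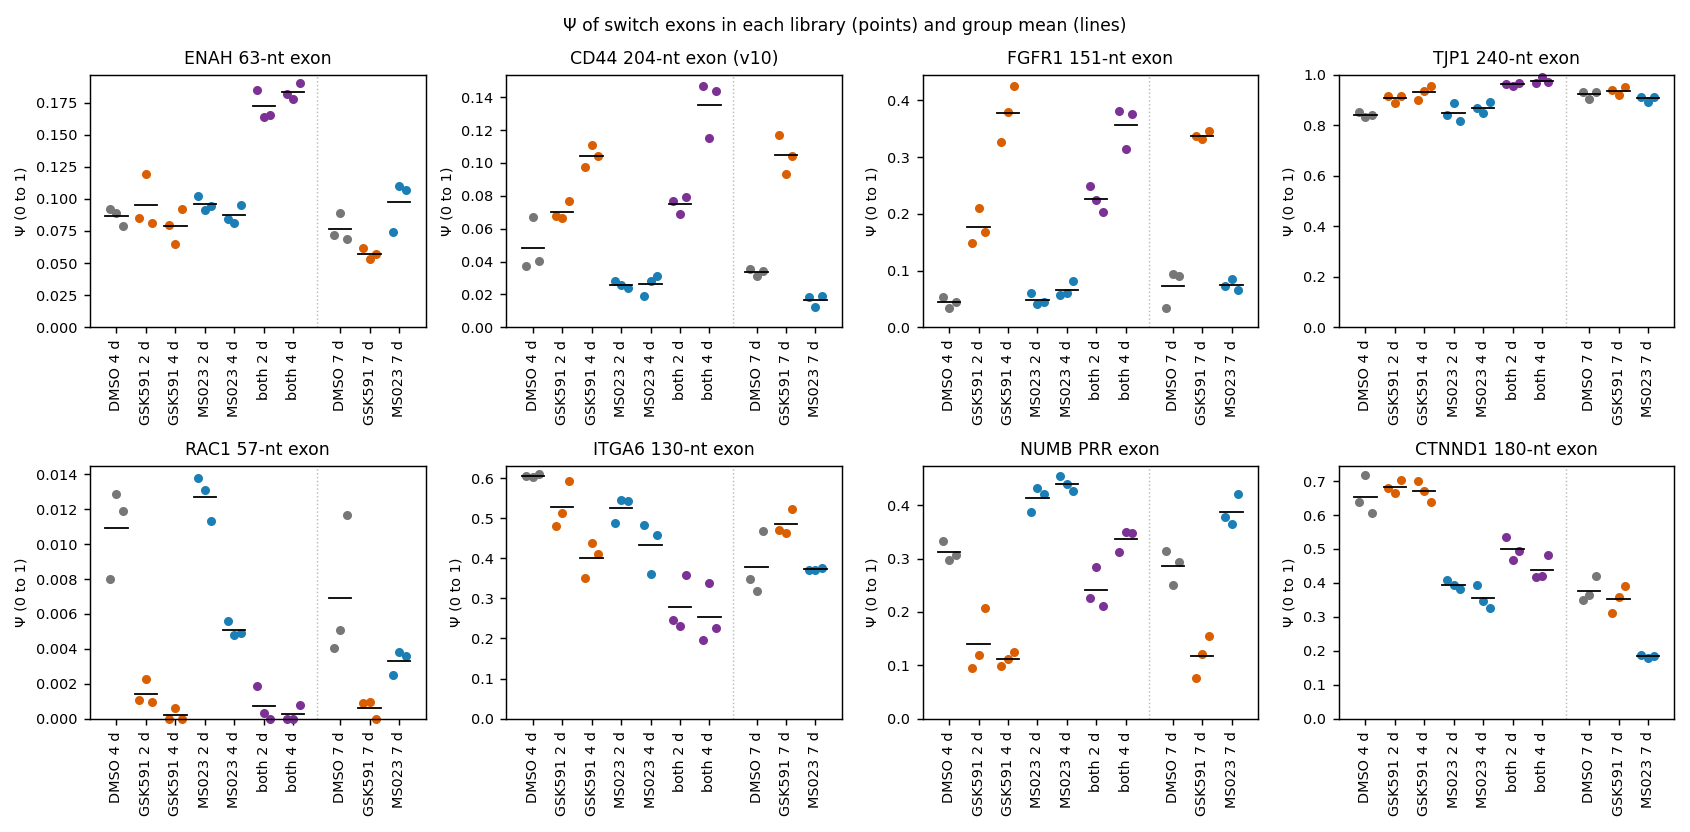
Ψ in each library (points; bars are group means) for 8 exons, by group along the horizontal axis; panels have their own vertical scales. The 3 libraries of both inhibitors at 4 days sit at 0.178 to 0.19 for the ENAH 63-nt exon, and the GSK591 libraries at 4 days sit at 0.327 to 0.426 for the FGFR1 151-nt exon against 0.0332 to 0.0538 with DMSO.

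In FGFR1 the exon of the epithelial receptor form rose with GSK591. The third immunoglobulin-like loop of this receptor ends in either of 2 mutually exclusive exons, the 151-nt exon IIIb (chr8:38280543-38280693, minus strand; the form of epithelial receptors) or the 145-nt exon IIIc (chr8:38279315-38279459; the mesenchymal form), which set ligand specificity. The skipped-exon event of the 151-nt exon is bounded by the 145-nt exon, so its inclusion form joins both exons. Reads inside the 151-nt exon count toward its inclusion whichever exon follows, here and in the pair below. RNA that holds both exons was therefore not told apart from the epithelial receptor form. Scored as a skipped exon, the 151-nt exon had a Ψ of 0.0538, 0.0332 and 0.0452 with DMSO at 4 days. With GSK591 it was 0.149, 0.211 and 0.168 at 2 days and 0.327, 0.379 and 0.426 at 4 days. All GSK591 libraries stood above all DMSO libraries, and ΔΨ was 0.132 (SE 0.0193, adjusted p = 1.13e-11) at 2 days, 0.333 (SE 0.0292, adjusted p = 7.77e-42) at 4 days and 0.266 (SE 0.0199, adjusted p = 1.69e-17) at 7 days. Both inhibitors gave 0.182 at 2 days and 0.313 at 4 days (adjusted p = 8.19e-21 and 1.16e-41). MS023 at 4 days gave a ΔΨ of 0.0222 (SE 0.0098, adjusted p = 0.493), and the co-treated libraries differed from GSK591 alone by -0.0202 (SE 0.0357, adjusted p = 0.97) at 4 days. The calls at 4 days and of the co-treatment at 2 days held with limma (adjusted p = 0.0288, 0.0143 and 0.0411); those of GSK591 at 2 and 7 days did not (0.169 and 0.078).

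Counted as a pair, with the 145-nt exon as the alternative, the share of the 151-nt exon rose from a mean of 0.038 ± 0.0119 with DMSO at 4 days to 0.293 ± 0.0224 with GSK591 at 4 days (SD, n = 3; ΔΨ 0.255, SE 0.0147, adjusted p = 6.11e-12, limma 0.0119). In every group the IIIc exon was the more used of the pair. The alpha exon (chr8:38287200-38287466), which encodes the first immunoglobulin-like loop of the long alpha receptor, also rose: from 0.317, 0.267 and 0.276 with DMSO at 4 days to 0.408, 0.402 and 0.443 with GSK591 at 2 days (ΔΨ 0.131, SE 0.0202, adjusted p = 0.000265) and 0.384, 0.385 and 0.404 at 4 days (ΔΨ 0.104, SE 0.0169, adjusted p = 0.00202), and by 0.2 and 0.141 with both inhibitors (adjusted p = 1.44e-11 and 2.12e-06). With MS023 at 4 days the exon stood at 0.236, 0.238 and 0.237 (ΔΨ -0.0498, SE 0.0155, adjusted p = 0.371). Its direct difference between GSK591 and MS023 was 0.154 at 4 days (adjusted p = 1.13e-07). None of the calls of the alpha exon held with limma over all exons (adjusted p = 0.262 to 0.587), and at 7 days DMSO spread from 0.246 to 0.433 and no call was made.

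Retention of a 252-nt FGFR1 intron (chr8:38285612-38285863; chosen for description after its values were seen) moved beside the switch. Ψ of the retained form was 0.0596, 0.0108 and 0.031 with DMSO at 4 days and 0.197, 0.279 and 0.229 with GSK591 at 4 days. ΔΨ was 0.0833, 0.201 and 0.109 at 2, 4 and 7 days of GSK591 (SE 0.0148, 0.0277 and 0.028; adjusted p = 0.00441, 1.18e-07 and 0.00391). With both inhibitors it was 0.0704 and 0.0612 at 2 and 4 days (adjusted p = 0.00325 and 0.00421), lower than with GSK591 alone at 4 days by a ΔΨ of -0.14 (adjusted p = 0.000361). Of the calls against DMSO, only that of GSK591 at 4 days held with limma (adjusted p = 0.0126). The inclusion counts of the tables join reads at splice junctions with reads inside the segment, so pre-mRNA reads inside the 151-nt exon and the alpha exon would count toward inclusion, and the part of retained introns in the exon values was not tested.

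In CTNND1 the exon with the first start codon fell with MS023 and was not called with GSK591 alone. This 180-nt exon (chr11:57558966-57559145) holds that codon in all 7 coding transcripts that contain it, the start of the long form of p120-catenin. A 289-nt version that ends at the same base holds the codon in 14 coding transcripts. With DMSO at 4 days Ψ was 0.638, 0.718 and 0.605. With MS023 it was 0.409, 0.394 and 0.381 at 2 days and 0.395, 0.347 and 0.327 at 4 days. No MS023 library overlapped the controls, and ΔΨ was -0.259 (SE 0.0346, adjusted p = 2.23e-22), -0.298 (SE 0.0393, adjusted p = 2.94e-34) and, against DMSO at 7 days, -0.194 (SE 0.022, adjusted p = 1.57e-26). With GSK591 it was 0.0297, 0.0161 and -0.0248 at 2, 4 and 7 days (SE 0.0355, 0.0381 and 0.0317; adjusted p = 0.663, 0.736 and 0.643). With both inhibitors the exon fell by 0.155 at 2 days and 0.214 at 4 days (adjusted p = 3.27e-08 and 3.22e-17), and its Ψ stayed above that of MS023 alone by 0.104 and 0.0832 (adjusted p = 0.000395 and 0.00178).

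The length of culture moved the same exon. With DMSO at 7 days Ψ was 0.349, 0.363 and 0.42, lower than at 4 days by a ΔΨ of -0.276 (SE 0.0401, adjusted p = 7.35e-28), a difference close in size to that of MS023 at 4 days. The MS023 libraries at 7 days were lower still, at 0.187, 0.179 and 0.185. The calls of this exon against DMSO held in all 6 fits that left out 1 library, and none held with limma over all exons (adjusted p = 0.25 to 0.537). The exon shares its reads with versions of 182 and 289 nt that end at the same base, so the 3 are not independent. Set against the 182-nt version, the 289-nt version had a mean Ψ of 0.952 with DMSO at 4 days. With both inhibitors at 4 days it was 0.981. The values of the described exon can therefore rest largely on reads of the 289-nt version.

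The other CTNND1 exons did not move as 1 block. The 119-nt exon before it (chr11:57556509-57556627), untranslated in all 15 coding transcripts that hold it, went from 0.922, 0.97 and 0.937 with DMSO at 4 days to 0.846, 0.804 and 0.849 with MS023 at 4 days (ΔΨ -0.11, SE 0.0205, adjusted p = 5.73e-10), and was also called lower with MS023 at 2 and 7 days and in both co-treated groups. The 72-nt exon after it (chr11:57561482-57561553) fell with GSK591 instead, from 0.878, 0.877 and 0.862 to 0.764, 0.831 and 0.733 at 4 days (ΔΨ -0.0961, SE 0.0296, adjusted p = 1.52e-05) and by 0.0877 at 2 days (adjusted p = 0.00187); with MS023 at 4 days it was 0.899, 0.914 and 0.893 (adjusted p = 0.536). GSK591 and MS023 differed for the 72-nt exon at 2, 4 and 7 days (ΔΨ -0.117, -0.126 and -0.116; adjusted p = 4.73e-06, 1.95e-10 and 2.52e-05). The 119-nt, 180-nt and 72-nt exons were chosen for description after their values were seen, and none of their calls against DMSO held with limma over all exons (adjusted p = 0.142 or above).

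The 3 short alternative exons that name the p120 isoforms A, B and C stayed near 0 or 1. The 63-nt exon (chr11:57581783-57581845) had group means of 0.952 to 0.974; it was called lower once, with both inhibitors at 2 days (ΔΨ -0.0216, SE 0.00409, adjusted p = 0.026), a call lost in 3 of 6 fits without 1 library. The 18-nt exon (chr11:57573933-57573950), best known from neural transcripts, had group means of 0.013 to 0.0582 and was not called against DMSO, although GSK591 exceeded MS023 at 2 and 4 days (ΔΨ 0.0343 and 0.0243, adjusted p = 0.0115 and 0.0053). The 87-nt exon (chr11:57583387-57583473) stood at 0.0681, 0.0533 and 0.0661 with DMSO at 7 days and at 0.0107, 0.0328 and 0.0245 with GSK591 at 7 days (ΔΨ -0.0398, SE 0.00794, adjusted p = 4.85e-06). It rose with both inhibitors at 4 days, to 0.072, 0.0564 and 0.056 from 0.0409, 0.0231 and 0.0267 (ΔΨ 0.0312, SE 0.00755, adjusted p = 1.74e-05).

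In NUMB the inhibitors moved an exon in opposite directions. The PRR exon (chr14:73745989-73746132, minus strand) lengthens the proline-rich region, and the protein with it is the form of proliferating cells. With DMSO at 4 days Ψ was 0.333, 0.297 and 0.307. With GSK591 at 4 days it was 0.0984, 0.112 and 0.124, and with MS023 at 4 days 0.455, 0.44 and 0.426. The GSK591 libraries lay wholly below and the MS023 libraries wholly above the controls. GSK591 lowered the exon at 2, 4 and 7 days (ΔΨ -0.172, -0.2 and -0.169; SE 0.0357, 0.0131 and 0.0298; adjusted p = 9.59e-06, 2.7e-13 and 3.03e-08). MS023 raised it at 4 days (ΔΨ 0.128, SE 0.0136, adjusted p = 0.000812) and at 7 days (ΔΨ 0.102, SE 0.0258, adjusted p = 0.0293, lost in 4 of 6 fits without 1 library), and gave 0.101 at 2 days (SE 0.017, adjusted p = 0.0554).

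Set directly against each other, GSK591 and MS023 differed at 2, 4 and 7 days for the NUMB PRR exon (ΔΨ -0.274, -0.328 and -0.271; adjusted p = 1.65e-13, 4.98e-33 and 5.34e-18). With both inhibitors the exon stood between them: 0.227, 0.284 and 0.211 at 2 days and 0.312, 0.35 and 0.348 at 4 days, with ΔΨ of -0.0717 (SE 0.0245, adjusted p = 0.129) and 0.0241 (SE 0.0164, adjusted p = 0.631) against DMSO. At 4 days the co-treated libraries were above GSK591 alone by 0.225 (adjusted p = 2.03e-16) and below MS023 alone by a ΔΨ of -0.104 (adjusted p = 0.00205). Against DMSO none of the calls of the NUMB PRR exon held with limma over all exons (adjusted p = 0.155 to 0.717); among exons of intermediate Ψ alone, GSK591 at 4 days did (adjusted p = 0.0188).

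**Figure D3:**
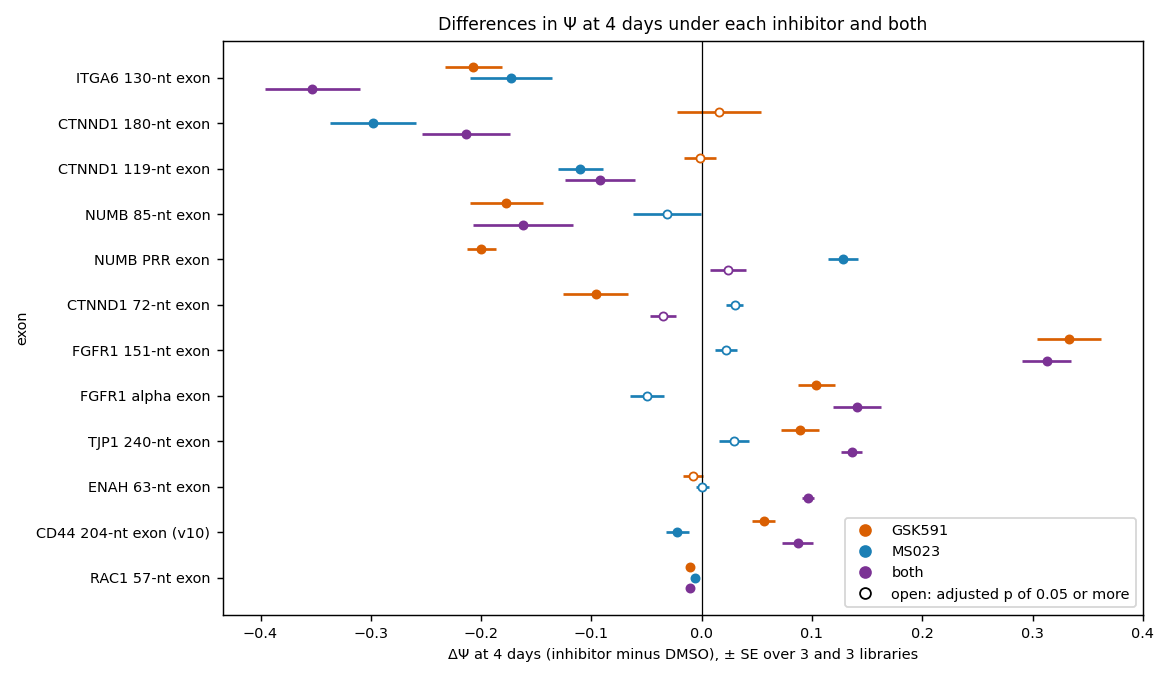
Difference in Ψ against DMSO at 4 days (horizontal axis, with SE bars, n = 3 and 3 libraries) for 12 exons under GSK591, MS023 and both inhibitors; filled points were called and open points were not. The NUMB PRR exon lies at -0.2 with GSK591, 0.128 with MS023 and 0.0241 with both, and the ENAH 63-nt exon lies at 0.0966 with both and within 0.01 of 0 with each alone.

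The other NUMB switch, the 33-nt exon in the phosphotyrosine-binding domain (chr14:73783098-73783130, minus strand), varied more between control libraries, at 0.404, 0.536 and 0.414 with DMSO at 4 days. With both inhibitors at 4 days it was 0.273, 0.282 and 0.293 (ΔΨ -0.169, SE 0.0427, adjusted p = 1.25e-05). With GSK591 at 4 days it was 0.32, 0.339 and 0.356 (ΔΨ -0.113, SE 0.0436, adjusted p = 0.0435), and that call was lost in 4 of 6 fits without 1 library. With MS023 ΔΨ was 0.00689 at 4 days (SE 0.0527, adjusted p = 0.994). An 85-nt exon of the 5′ untranslated region (chr14:73833605-73833689; chosen for description after its values were seen) fell from 0.698, 0.678 and 0.768 to 0.513, 0.525 and 0.576 with GSK591 at 4 days (ΔΨ -0.177, SE 0.0335, adjusted p = 6.8e-05) and by 0.214 and 0.162 with both inhibitors (adjusted p = 3.41e-07 and 6.06e-05). Both exons were also lower with DMSO at 7 days than at 4 days (ΔΨ -0.124 and -0.112; adjusted p = 0.0303 and 0.0392).

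TJP1, the scaffold of tight junctions, is made with or without the alpha domain encoded by a 240-nt exon (chr15:30011981-30012220, minus strand). Most transcripts contained it: Ψ was 0.852, 0.832 and 0.841 with DMSO at 4 days. It rose to 0.9, 0.936 and 0.956 with GSK591 at 4 days (ΔΨ 0.0891, SE 0.0173, adjusted p = 3.1e-05), to 0.966, 0.957 and 0.968 with both inhibitors at 2 days (ΔΨ 0.122, SE 0.0069, adjusted p = 1.06e-11) and to 0.969, 0.993 and 0.971 with both at 4 days (ΔΨ 0.136, SE 0.00971, adjusted p = 5.33e-16). All GSK591 and co-treated libraries lay above the 3 controls. With MS023 at 4 days Ψ was 0.868, 0.851 and 0.893 (ΔΨ 0.0294, SE 0.0136, adjusted p = 0.679). The co-treated libraries exceeded GSK591 alone by 0.0563 at 2 days and 0.0467 at 4 days (adjusted p = 0.00476 and 0.0122) and MS023 alone by 0.114 and 0.106 (adjusted p = 1.22e-10 and 2.32e-11). The call of both inhibitors at 4 days held with limma (adjusted p = 0.0337), and that of GSK591 at 2 days (ΔΨ 0.0657, adjusted p = 0.0497) was lost in all 6 fits without 1 library. DMSO at 7 days was at 0.934, 0.906 and 0.931, above DMSO at 4 days by 0.0825 (adjusted p = 0.0468).

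ITGA6 ends in alternative cytoplasmic tails: inclusion of the 130-nt exon (chr2:173366500-173366629) gives the alpha 6A tail, typical of epithelia, and skipping gives alpha 6B. With DMSO at 4 days Ψ was 0.606, 0.602 and 0.61. It fell with each inhibitor at 4 days, to 0.351, 0.438 and 0.41 with GSK591 (ΔΨ -0.207, SE 0.0256, adjusted p = 6.55e-05) and to 0.484, 0.36 and 0.457 with MS023 (ΔΨ -0.173, SE 0.0375, adjusted p = 0.00766; without library b of MS023, adjusted p = 0.185). With both inhibitors it was 0.246, 0.231 and 0.359 at 2 days and 0.197, 0.338 and 0.225 at 4 days (ΔΨ -0.328 and -0.353, SE 0.0404 and 0.0431, adjusted p = 5.1e-12 and 1.85e-13). The co-treated libraries were lower than either inhibitor alone at both times, by a ΔΨ of -0.249 against GSK591 and -0.247 against MS023 at 2 days (adjusted p = 4.27e-06 and 7.61e-07) and of -0.146 and -0.18 at 4 days (adjusted p = 0.0112 and 0.000378). These values rest on 88 to 353 reads a library at 2 and 4 days, and against DMSO none held with limma over all exons (adjusted p = 0.068 to 0.657).

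The ITGA6 exon was also lower in the 7-day control, at 0.348, 0.318 and 0.467 with DMSO at 7 days (ΔΨ -0.228, SE 0.0454, adjusted p = 8.61e-05 against DMSO at 4 days). With GSK591 at 7 days the exon stood at 0.471, 0.462 and 0.522, above that control on average (ΔΨ 0.107, SE 0.0491, adjusted p = 0.295). With MS023 at 7 days it was 0.37, 0.371 and 0.377 (ΔΨ -0.0052, SE 0.0454, adjusted p = 0.899).

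CD44 was made almost wholly in its standard form, and the inhibitors changed a minor set of variable exons in different directions. Exons v2 to v10 are exons 6 to 14 of the full-length gene. Of these, v3, v5, v6, v8, v9 and v10 had an event that sets them against the reads that join exon 5 straight to exon 15. The most used of these 6 was v10, the 204-nt exon 14 (chr11:35232793-35232996). With DMSO at 4 days it was in 3.71%, 6.73% and 4.01% of these transcripts. With GSK591 at 4 days it was in 9.73%, 11.1% and 10.4%, with both inhibitors at 4 days in 14.7%, 11.5% and 14.4%, and with MS023 at 4 days in 1.89%, 2.81% and 3.15%. All GSK591 and co-treated libraries at 4 days lay above the controls, and all MS023 libraries below them. On the Ψ scale the difference at 4 days was 0.0562 with GSK591 (SE 0.0104, adjusted p = 4.53e-23), 0.0871 with both inhibitors (SE 0.0141, adjusted p = 1.66e-39) and -0.022 with MS023 (SE 0.0103, adjusted p = 3.57e-05). At 7 days it was 0.0715 with GSK591 (SE 0.00699, adjusted p = 7.83e-43) and -0.017 with MS023 (SE 0.00246, adjusted p = 0.0014).

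Library b of DMSO at 4 days stood apart for v10. Where each exon's own spread was used when larger than the shared one, the calls of v10 were lost with GSK591 at 2 days (adjusted p = 0.453), MS023 at 2 and 4 days (0.383 and 0.462) and both inhibitors at 2 days (0.27), while those of GSK591 and both inhibitors at 4 days and of GSK591 and MS023 at 7 days remained (0.000171, 2.28e-06, 1.31e-23 and 0.00181). None of the v10 calls held with limma over all exons (adjusted p = 0.147 to 0.74). The direct difference between GSK591 and MS023 did not involve the controls, and was 0.0446, 0.0781 and 0.0885 at 2, 4 and 7 days (adjusted p = 6.03e-17, 1.21e-43 and 5.71e-55). These direct p-values rest on the shared dispersion, and were not checked with limma, with the exon's own spread or with 1 library left out.

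**Figure D4:**
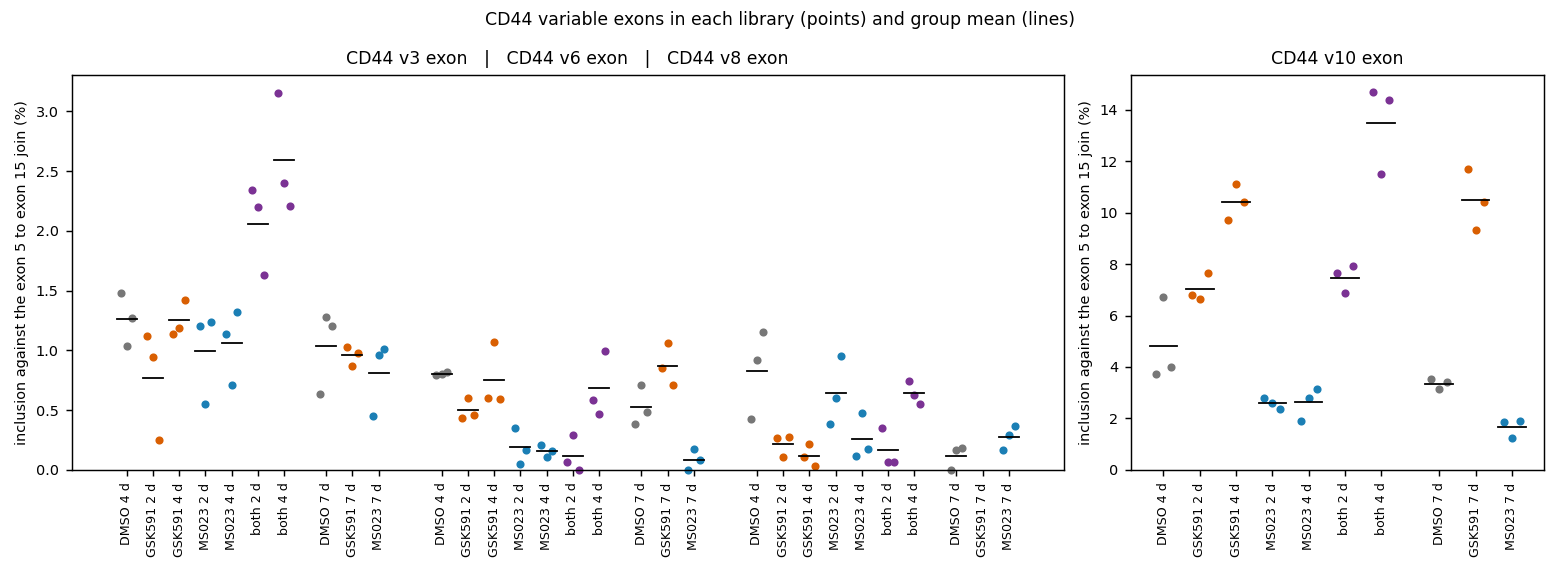
Percent of CD44 transcripts that contain a variable exon, against those that join exon 5 to exon 15 (vertical axes; points are libraries, bars are group means), for v3, v6 and v8 (left) and v10 (right) in each group; v8 has no value with GSK591 at 7 days, where the event was not listed. v10 reaches 14.7% with both inhibitors at 4 days, while v3, v6 and v8 stay under 4%.

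The other 5 exons on this base were rare. v3 (exon 7) was in 1.48%, 1.04% and 1.27% of transcripts with DMSO at 4 days and in 3.15%, 2.4% and 2.21% with both inhibitors at 4 days (adjusted p = 0.00134). v8 (exon 12) went the other way with GSK591, from 0.422%, 0.92% and 1.15% to 0.111%, 0.214% and 0.0286% at 4 days (adjusted p = 6.66e-05). The control for v8 was not steady: with DMSO at 7 days it was in 0%, 0.17% and 0.181%, as low as with GSK591 at 4 days. v6 (exon 10) was in 0.796%, 0.799% and 0.815% with DMSO at 4 days and fell with MS023, to 0.208%, 0.108% and 0.159% at 4 days (adjusted p = 0.016), but not with GSK591 at 4 days, where it was in 0.599%, 1.07% and 0.591% (adjusted p = 0.894). v5 (exon 9) and v9 (exon 13) had at most 5 and 8 inclusion reads in a group. v7 (exon 11), scored between exons 7 and 12, went from 0.837, 0.292 and 0.15 with DMSO at 4 days to 0.0365, 0.0647 and 0 with both inhibitors at 4 days on the Ψ scale (ΔΨ -0.393, SE 0.21, adjusted p = 6.58e-05), on 12 to 32 reads a library, and without library a of DMSO the call was lost (adjusted p = 0.188).

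Among transcripts that carry v10, v8 (chr11:35229652-35229753) can be set against its own skipping, the join of exon 5 to exon 14. On that base Ψ of v8 was 0.175, 0.174 and 0.252 with DMSO at 4 days and 0.0132, 0.0206 and 0.00313 with GSK591 at 4 days (ΔΨ -0.188, SE 0.0264, adjusted p = 4.22e-10, limma 0.0298). It also fell with both inhibitors at 4 days, to 0.0582, 0.0698 and 0.0502 (adjusted p = 0.00121), but with MS023 at 4 days it was 0.0733, 0.24 and 0.0719 (adjusted p = 0.694). The skipping reads of this event are themselves transcripts with v10, the exon that rose, so less v8 and more v10 without v8 cannot be told apart on this base. Libraries held 17 to 205 reads of it in the 4-day groups.

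Apart from the textbook switch exons, the 4 called segments of the 8 genes with the largest absolute ΔΨ were CD44 pairs scored as mutually exclusive, each on at most 50 reads a library in the groups compared. v3 against v6 rose from 0.472, 0.571 and 0.459 to 0.91, 0.84 and 1 with both inhibitors at 2 days (ΔΨ 0.416, SE 0.0582, adjusted p = 0.00505). v6 against v8 went from 0.655, 0.464 and 0.415 to 0.844, 0.834 and 0.954 with GSK591 at 4 days (ΔΨ 0.366, SE 0.0826, adjusted p = 0.00978; lost in 3 of 6 fits without 1 library), with a nearly equal value (ΔΨ 0.333; lost in 4 of 6) where v8 ends 3 bases later. v3 against v8 rose by 0.343 with both inhibitors at 2 days (adjusted p = 0.0256; lost in 3 of 6). Elsewhere in these genes many pairs scored as mutually exclusive are neighbouring exons that most transcripts contain together, where reads inside both exons put Ψ near the middle of the scale, so other pairs are counted above but not described.

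Direct comparisons among exons with intermediate Ψ placed these genes beside all others. GSK591 differed from MS023 in 10 of 19 member exons at 2 days, 12 of 19 at 4 days and 9 of 18 at 7 days, where 21.7%, 30.2% and 25.5% of all such exons did. The co-treatment differed from GSK591 in 7 of 20 at 2 days and 10 of 22 at 4 days (9.21% and 12.2% of all), and from MS023 in 13 of 18 and 16 of 23 (24% and 30.5% of all). DMSO at 7 days differed from DMSO at 4 days in 7 of 18 member exons, 2 higher and 5 lower, where 5.18% of all such exons did. These 7 were the CTNND1 180-nt exon and its 182-nt version (which share reads), the CTNND1 87-nt, ITGA6 130-nt, NUMB 33-nt, NUMB 85-nt and TJP1 240-nt exons, so for these the effects at 4 and 7 days were measured from different control levels. The effect of GSK591 differed between 7 and 4 days in 8 of 106 tested segments, against 1.95% of all, and that of MS023 in 0 of 100 (9 at an unadjusted p under 0.05), against 0.121% of all.

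A list of 18 further genes with textbook epithelial and mesenchymal exons (among them CLSTN1, EPB41 and MAP3K7) was counted over every exon of intermediate Ψ. These are not only the textbook exons, and some of them overlap. With GSK591 at 4 days 21 of 45 tested exons were called, 1 higher and 20 lower (46.7%, where 22.8% of all exons of intermediate Ψ were called). The median ΔΨ of the tested exons was -0.0655 beside -0.031 over all exons of intermediate Ψ. With GSK591 at 7 days 14 of 44 were called (31.8%, against 17.5% of all), 5 higher and 9 lower. With both inhibitors at 4 days 24 of 49 were called (49%, against 31.9% of all; 5 higher, 19 lower; median -0.0597 beside -0.0336), and with MS023 at 4 days 11 of 50 (22%, against 7.87% of all; 6 higher, 5 lower; median -0.0111 beside -0.00989). The 57-nt exon of CLSTN1, a transport adaptor, fell from a mean Ψ of 0.697 to 0.381 with GSK591 and 0.0841 with both inhibitors at 4 days (adjusted p = 2.44e-22 and 4.54e-124). With MS023 at 4 days it was 0.575 (adjusted p = 0.000726). At 7 days its mean was 0.434 with DMSO and 0.534 with GSK591 (adjusted p = 0.114). The 93-nt exon of EXOC7 went the other way, from 0.387 to 0.622 with GSK591 at 4 days (adjusted p = 2.2e-09), and was the 1 exon called higher there. The 81-nt exon of MAP3K7, the kinase TAK1, fell from 0.157 to 0.0527 with GSK591 and rose to 0.377 with MS023 (adjusted p = 0.000235 and 1.9e-08). The member exons were more evenly split, with 5 higher and 6 lower with GSK591 at 4 days.

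Of 10 splicing regulators of these exons, ESRP1 and ESRP2 had no exon that could be tested. The others had 5 of 20 exons called with GSK591 at 4 days (0 higher, 5 lower), 1 of 18 with MS023 at 4 days (0 and 1) and 9 of 18 with both inhibitors at 4 days (1 and 8). These shares were 25%, 5.56% and 50%, where 22.8%, 7.87% and 31.9% of all exons of intermediate Ψ were called, so the first and second were near the background. Among them, the 36-nt exon of MBNL1 fell from a mean Ψ of 0.643 to 0.509 with GSK591 and 0.431 with both inhibitors at 4 days (adjusted p = 0.000501 and 3.25e-11), and the 78-nt segment of PTBP1 from 0.689 to 0.577 and 0.508 (adjusted p = 1.61e-12 and 6.73e-29).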

How the data were processed

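Poly(A) RNA of A549 cells was sequenced by the authors as stranded paired-end libraries. Per the labels and the study's methods, reads were trimmed with Trim Galore 0.6.5, aligned to hg19 with STAR 2.4.2a and counted with rMATS. The deposited tables hold whole-number read counts for the inclusion and skipping form of each event, not normalized, with reads at junctions and inside the segment joined, 3 libraries to a cell; their own p-values, FDR and Ψ differences were not used.

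From these counts Ψ was computed with the effective lengths of the tables, (I/lI)/((I/lI) + (S/lS)). For each segment 1 event stood in, that listed in the most tables and, among those, with the most DMSO reads. A quasi-binomial logistic model was fitted to every event with at least 10 reads in each library, the dispersion moderated within event type (limma 3.58.1, R 4.3.3; prior from events with at least 10 reads of the rarer form, a limit added after seeing the files) and held at 1 or above, and p-values adjusted by Benjamini-Hochberg within event type and comparison. The procedure was tested on simulated data. Those counts were drawn with a dispersion shared by all exons, as the test assumes. The simulation therefore cannot show how the test treats exons whose own spread is larger. Counts on skipped exon events summed to 45420420 to 97845475 per library, with a read counted in every event it falls in; intervals and limits cover counting error only.

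The genes, exons and lists were chosen with earlier results of these data known. Described are textbook switch exons and the 5 other segments with the largest absolute ΔΨ among those called. Further segments outside that rule were added, and are marked above as chosen after their values were seen. Alternatives were another test, other read minimums, pooled adjustment, every event counted, no effective lengths and each library left out. Some genes of the list of further switch genes are not reported here. Nascent RNA and actinomycin D samples were not analysed here.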

Additional observations from a re-analysis of the deposited data

Results flagged for a closer look

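The effect of GSK591, tested as an interaction of treatment and day in the same quasi-binomial model, differed between 7 and 4 days in 8 segments of these genes. For the ITGA6 130-nt exon the effect was higher at 7 days by a ΔΨ of 0.314 (adjusted p = 0.000283), with -0.207 at 4 days and 0.107 at 7 days. For the ENAH exon of 795 or 111 nt the change of the effect was -0.0636 (adjusted p = 0.000111), and for the ENAH pair of 305 or 795 nt, which shares the 795-nt exon, it was -0.115 (adjusted p = 0.00554). For the CTNND1 87-nt exon it was -0.0446 (adjusted p = 0.000328). For the CTNND1 pairs of 119 or 72 nt and 119 or 289 nt it was -0.165 and -0.0953 (adjusted p = 0.00234 and 0.0345). For the CD44 204-nt exon (v10) it was 0.0153 (adjusted p = 0.0495), and for a CD44 5′ splice site choice of 231 or 138 nt it was 0.0174 (adjusted p = 0.0143). The control level of the ITGA6, ENAH 795-nt and CTNND1 87-nt segments also differed between DMSO at 7 and 4 days (adjusted p = 8.61e-05, 1.47e-11 and 0.000907), and its part in these differences was not tested.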

How the results depend on the processing

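The choice of test moved the counts most. Given for GSK591 first (2, 4 and 7 days), then MS023 (the same days) and then the co-treatment (2 and 4 days), limma on log2 odds called 1, 8, 0, 0, 0, 0, 7 and 10 member segments in place of 16, 29, 14, 7, 9, 12, 33 and 35, and limma over segments of intermediate Ψ alone (chosen after seeing the data) called 5, 9, 4, 0, 0, 2, 12 and 20. Of 140 called values of the tested member segments with a mean Ψ of 0.05 to 0.95 in a group, with the CTNND1 63-nt and RAC1 57-nt exons added, 23 held with limma and 51 of 125 with limma among intermediate segments. Counting every event gave 47 with GSK591 at 4 days, 25 at 7 days, and 11 and 15 with MS023 at 2 and 4 days. Leaving out 1 library gave 11 to 17, 22 to 28, 11 to 16, 5 to 7, 6 to 9, 11 to 13, 25 to 32 and 28 to 32, and 735 of 840 such fits kept the call. With each event's own dispersion where larger (chosen after seeing the data) 125 of 140 held. At least 20 reads, 1 read, pooled adjustment and no effective lengths kept 137 of 137, 136, 138 and 140. None of these alternatives reversed a called direction. They covered the comparisons with DMSO, and not the direct comparisons or the interaction of treatment and day. No paired analysis was possible because the columns carry no replicate numbers. The planned quasi-likelihood fit for count tables was not run. Depth limits the CD44 variable exons other than v10 and the RAC1 exon, which rest on few inclusion reads.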
